A study of Homo sapiens with 4 samples.

Results

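SR proteins and hnRNPs are the main families of RNA-binding proteins that set which exons are kept in a messenger RNA. The genes described here are the protein-coding rows of the deposited table whose symbol is SRSF followed by a number or HNRNP followed by a capital letter, 39 of 20348 genes. They comprise 12 SR genes and 27 hnRNP genes. A total of 35 had a count in at least 1 library, whereas HNRNPCL1, HNRNPCL2, HNRNPCL3 and HNRNPCL4, copies related to HNRNPC, had a count of 0 in all 4 libraries, where a count of 0 allows up to 3 counts. Of the others, 34 reached a mean of 1 CPM in K562 and 35 did so in THP-1, and 32 (11 SR and 21 hnRNP) reached 10 CPM in both lines. CPM is the usual counts-per-million unit, here from expected counts after scaling by TMM. This factor aligns the bulk of genes between the libraries of the same line. K562 and THP-1 were not aligned with each other, so comparisons of CPM between the lines are rough.

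The samples were K562, a line from chronic myeloid leukemia, and THP-1, a line from acute monocytic leukemia that came from another laboratory. Each line was kept for 72 h with the solvent DMSO, which the sample titles call a blank control, or with 100 nM periplocin, a plant cardiac glycoside. Poly-A RNA of 1 culture per line and treatment was sequenced, 4 libraries in all, and the study asked which genes responded to the compound. Treatment and library therefore cannot be told apart, each line stands for itself alone, and a fall in an mRNA cannot be separated from a rise in the rest of the RNA.

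Library totals were 16381172 to 20622719 counts. Mitochondrially encoded genes took 5.62% of the counts in K562 with DMSO and 2.07% with periplocin, and 5.24% and 3.92% in THP-1. The lines matched their labels, with 7 of 8 erythroid markers higher in K562, where the exception was LMO2, and 8 of 8 monocytic markers higher in THP-1. Among the monocytic markers MPO was low in THP-1. The erythroid markers summed to 1424 CPM in K562 with DMSO and 4400 CPM with periplocin, against 160.5 and 177.3 CPM in THP-1, so they moved with the treatment in K562. The monocytic markers summed to 1011 and 1136 CPM in THP-1 and to 93.3 and 87.5 CPM in K562. The part of these shifts in the splicing factor results was not tested.

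SR proteins carry RNA recognition motifs and a tail rich in arginine and serine. They bind enhancer sequences in exons and recruit the U1 and U2 snRNPs to nearby splice sites, and kinases of the SRPK and CLK families control them by phosphorylating the tail. The hnRNPs coat nascent transcripts, and several of them, HNRNPA1 first among these, act on splice sites in the opposite sense to SR proteins. Many members of both families hold their own levels in check by splicing their pre-mRNAs into forms that are destroyed by nonsense-mediated decay (NMD), often through ultraconserved poison exons. Gene counts add up productive and NMD-sensitive forms, so a gene count here is not a measure of protein-coding transcripts alone. In the GENCODE release 29 annotation, 12 of 12 SR genes and 14 of 27 hnRNP genes had a transcript annotated as an NMD target. Among genes of at least 10 CPM in both lines the numbers were 11 of 11 and 14 of 21, beside 48.0% of 8022 protein-coding genes.

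The families also differed in the letters before their start sites, as read from RefSeq promoter sequences (GRCh38.p14). A start was listed for 35 members, 11 SR and 24 hnRNP; those of SRSF2, HNRNPA1, HNRNPA1L3 and HNRNPCL3 were not matched. Over the 250 bases before any listed start, and on either strand, the CCAAT box (CCAAT, or ATTGG) was found in 2 of 11 SR genes, SRSF3 and SRSF8, and in 19 of 24 hnRNP genes, beside 42.7% of 6709 genes of at least 10 CPM in both lines. HNRNPUL2 and HNRNPUL2-BSCL2 both had it in windows that overlap, so those counts are not independent. The GC box (GGGCGG, or CCGCCC) was in 4 of 11 SR genes and 18 of 24 hnRNP genes, beside 77.6%. The E-box CACGTG was in 0 of 11 and 6 of 24, namely HNRNPA3, HNRNPD, HNRNPDL, HNRNPH2, HNRNPH3 and HNRNPM, beside 12.2%. The ETS site (CCGGAAG, or CTTCCGG) was in 2 of 11 and 3 of 24, beside 22.9%. Unlike the genes beside them, members were not limited to 10 CPM, and HNRNPCL1 and HNRNPCL2, with 0 counts, are among the 19. Over all 27305 genes with a listed start the shares were 37.0% (CCAAT box), 46.2% (GC box), 7.7% (E-box) and 10.2% (ETS site). These motifs were picked after the expression values had been seen, they were not tested, and a match is a description of letters only. The sequences below are shown because they hold both patterns: SRSF3 is an SR gene with the CCAAT box, SRSF6 one without it, and HNRNPAB and HNRNPL are hnRNP genes with both the CCAAT and the GC box. Each runs from 250 to 31 bases before the start, overlaps no annotated exon, and has the matches in capitals. They lie at chr6:36594112-36594331 (plus strand, SRSF3), chr20:43457646-43457865 (plus, SRSF6), chr5:178204283-178204502 (plus, HNRNPAB) and chr19:38852378-38852597 (minus, HNRNPL).
SRSF3: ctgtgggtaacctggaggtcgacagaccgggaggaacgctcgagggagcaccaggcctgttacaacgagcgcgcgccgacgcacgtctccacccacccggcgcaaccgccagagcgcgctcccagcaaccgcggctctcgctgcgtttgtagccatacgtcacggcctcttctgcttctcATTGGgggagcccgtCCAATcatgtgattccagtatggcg
SRSF6: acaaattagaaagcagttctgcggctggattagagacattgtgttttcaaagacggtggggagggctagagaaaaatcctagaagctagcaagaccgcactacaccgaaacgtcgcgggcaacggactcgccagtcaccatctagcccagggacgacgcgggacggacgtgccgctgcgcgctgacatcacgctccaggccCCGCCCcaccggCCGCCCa
HNRNPAB: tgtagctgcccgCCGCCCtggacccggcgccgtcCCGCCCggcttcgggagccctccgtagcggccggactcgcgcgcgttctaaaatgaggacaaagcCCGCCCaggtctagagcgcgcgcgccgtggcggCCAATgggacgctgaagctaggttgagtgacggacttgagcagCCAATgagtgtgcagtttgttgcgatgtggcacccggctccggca
HNRNPL: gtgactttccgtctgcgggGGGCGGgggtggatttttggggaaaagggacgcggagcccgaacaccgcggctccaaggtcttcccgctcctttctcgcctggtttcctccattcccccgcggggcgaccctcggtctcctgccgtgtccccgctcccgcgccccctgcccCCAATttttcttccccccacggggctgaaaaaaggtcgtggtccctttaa

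By summed counts, the SR family was higher after periplocin in K562 and the hnRNP family was not. Summed over the family, SR genes took 34517 counts, 0.211% of the library, in K562 with DMSO and 49198 counts, 0.297%, with periplocin. The hnRNP genes took 155470 counts (0.949%) and 155400 counts (0.938%) in the same libraries. HNRNPA1 alone took 31287 and 22046 of these, so the level hnRNP sum holds falls in some genes and rises in others. The SR share of the counts of both families, which needs no scaling between libraries, was 18.2% in K562 with DMSO (95% Clopper-Pearson interval 18% to 18.3%) and 24.0% with periplocin (23.9% to 24.2%). In THP-1 it was 19.3% (19.2% to 19.5%) with DMSO and 19.5% (19.3% to 19.6%) with periplocin. The share thus rose by 5.88 percentage points in K562, and by 4.67 points there without SRSF1 and HNRNPA1. The THP-1 intervals overlapped, and the shift in that line was 0.15 points. That THP-1 shift turned to -0.15 points without SRSF1 and HNRNPU, which had the most counts in their families over the 4 libraries, to -0.96 points without SRSF1 and HNRNPA1, which had the most in K562, and to -0.54 points when counts were taken per kilobase. In THP-1 the SR genes summed to 0.247% and 0.236% of the library and the hnRNP genes to 1.034% and 0.977%. Intervals of this kind, and all standard errors given here, cover counting error only, since each condition had 1 library and no spread between replicates could be measured.

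Differences between libraries were tested gene by gene on the counts of each pair with edgeR's exact binomial test, adjusted by the Benjamini-Hochberg method over all genes with a count in the pair. The test compares those 2 libraries, not the conditions. Calls at an adjusted p under 0.05 are described as past counting error. At a change of at least 2-fold, 1 of 35 members was called higher in K562 and 0 lower, beside 8.18% and 10.1% of all 15919 genes tested (6.77% and 7.44% of genes of at least 10 CPM). In THP-1, 0 members were called higher and 2 lower, HNRNPDL and HNRNPA1L2, beside 8.28% and 9.76% of 16020 genes (5.33% and 6.59% of genes of at least 10 CPM). The shares of members called at 2-fold were at or below those of genes at large. The only 2-fold call in K562 was the read-through gene HNRNPUL2-BSCL2, with 97.5% of its 100-base stretches also present in other genes.

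At a change of at least 1.5-fold, 10 members were called higher in K562 (SRSF3, SRSF4, SRSF5, SRSF7, HNRNPDL, HNRNPH1, HNRNPH2, HNRNPR, HNRNPUL2 and HNRNPUL2-BSCL2), beside 15.4% of all genes tested and 17.7% of genes of at least 10 CPM. A further 2, HNRNPLL and HNRNPA1L2, were called lower, beside 17.4% and 17.6%. In THP-1, 2 were called higher, HNRNPK and HNRNPH2, beside 15% and 14.7%, and 5 lower, SRSF2, HNRNPA1, HNRNPA1L2, HNRNPA3 and HNRNPDL, beside 17.6% and 16.7%. All of these calls rest on a dispersion of 0. With an assumed dispersion of 0.04, which stands for the spread that replicate cultures might show, 0 members were called at 2-fold or 1.5-fold in either line.

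**Figure D1:**
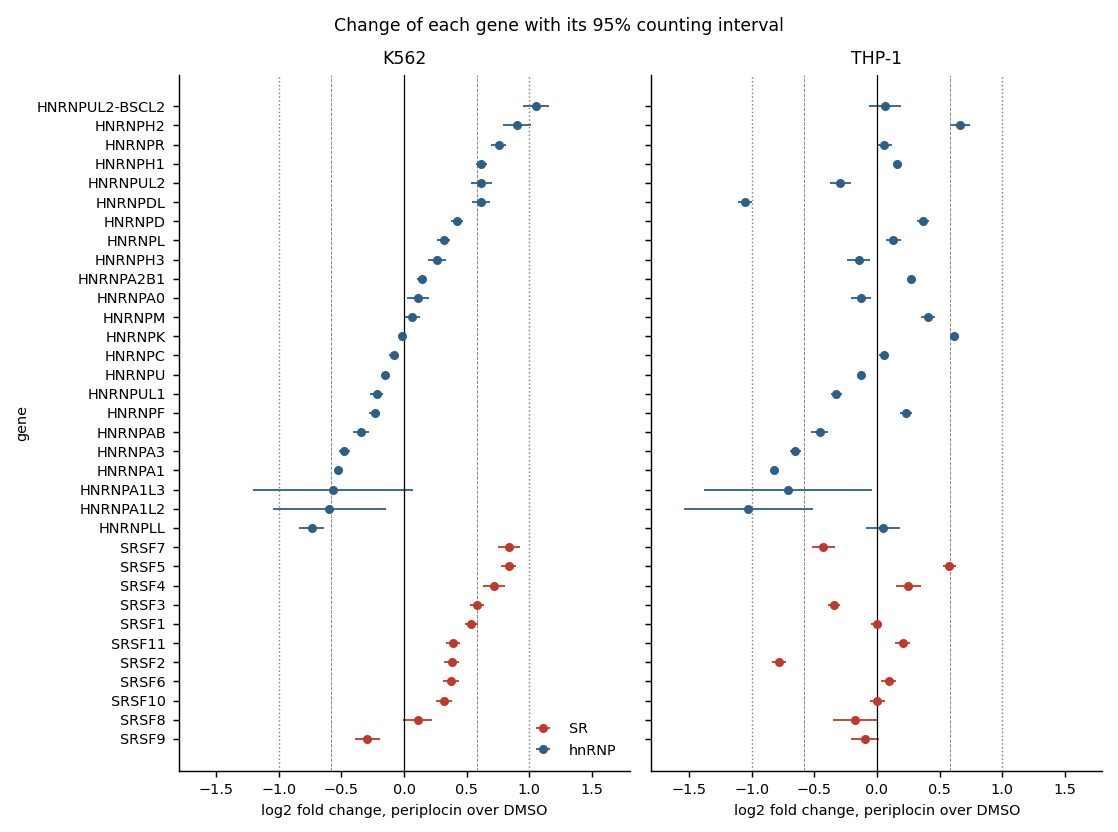
Log2 fold change of each SR gene (red) and hnRNP gene (blue) of at least 1 CPM in both lines, periplocin over DMSO, in K562 (left) and THP-1 (right), with bars for the 95% counting interval, dotted lines at 2-fold and dashed lines at 1.5-fold. In K562, 10 of the 11 SR genes lie to the right of 0 and SRSF9 lies to the left, whereas in THP-1 the SR genes lie on both sides, from SRSF2 at -0.78 to SRSF5 at 0.58.

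Taken by direction at any size, among members of at least 10 CPM in both lines, 9 of 11 SR genes were higher in K562 past counting error, 1 was lower (SRSF9) and 1 was neither (SRSF8), beside 29.4% of all genes tested called higher and 30% called lower (41.4% and 38.4% of genes of at least 10 CPM). In THP-1, 4 of the 11 were higher (SRSF4, SRSF5, SRSF6 and SRSF11), 3 lower (SRSF2, SRSF3 and SRSF7) and 4 neither, beside 30.3% and 31.2% (40.3% and 39%). The 21 hnRNP genes were divided: 11 higher, 8 lower and 2 neither in K562, and 9, 9 and 3 in THP-1. The median log2 fold change of members of at least 1 CPM was 0.39 for SR and 0.06 for hnRNP genes in K562, beside -0.01 for all 11863 genes of that level. In THP-1 the medians were -0.05 and 0.05, beside -0.02 for 12341 genes.

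The 11 SR genes responded in the lines in 1 of 3 ways. SRSF4, SRSF5, SRSF6 and SRSF11 were higher in both lines, which was 36.4% of the SR genes beside 22.5% of 8048 genes of at least 10 CPM in both. SRSF2, SRSF3 and SRSF7 were higher in K562 and lower in THP-1, 27.3% beside 10.7%, and the others passed in 1 line or in neither. Of the 21 hnRNP genes, 5 (23.8%) were higher in both lines and 4 (19.0%) were higher in K562 and lower in THP-1. A further 5 hnRNP genes were lower in both and 2 were lower in K562 and higher in THP-1. The opposite pattern was thus not particular to the SR genes. The log2 fold change was smaller in THP-1 than in K562 for 10 of 11 SR genes, with SRSF9 the exception, and for 14 of 21 hnRNP genes, beside 53.6% of the 8048 genes. Members are not independent samples of a treatment, and these shares were not tested against the rest of the genome.

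**Figure D2:**
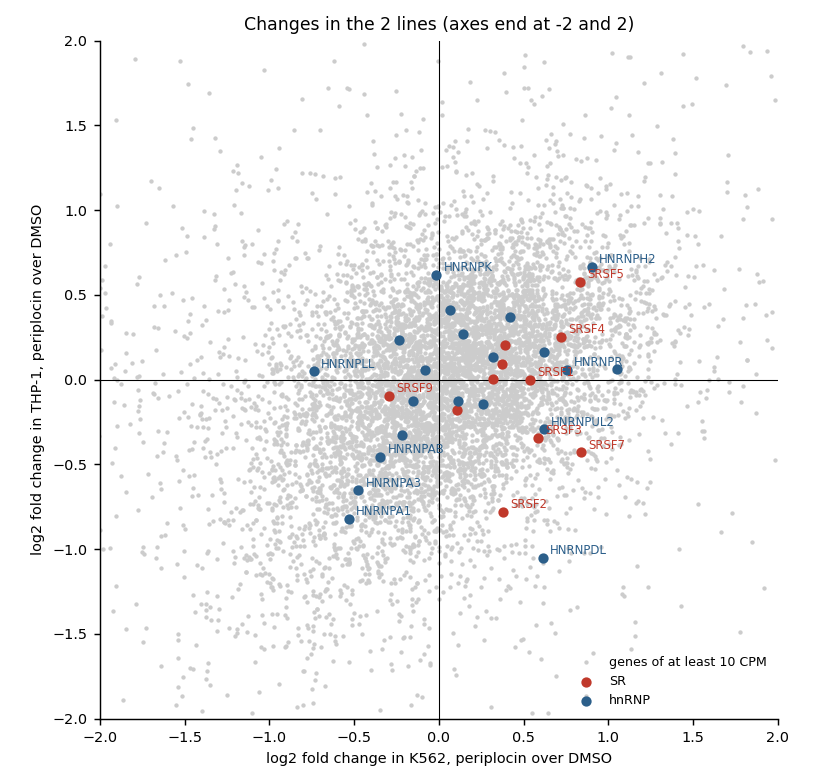
Log2 fold change in K562 (x) against THP-1 (y), periplocin over DMSO, for SR genes (red), hnRNP genes (blue) and all genes of at least 10 CPM in both lines (grey; genes beyond -2 or 2 fall outside the axes). SRSF2, SRSF3, SRSF7, HNRNPDL and HNRNPUL2 sit at the lower right, higher in K562 and lower in THP-1, while HNRNPA1, HNRNPA3 and HNRNPAB sit at the lower left.

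The largest increases among SR genes that went the same way in both lines were those of SRSF5. This SR protein, with a pair of RNA recognition motifs, is close in sequence to SRSF4 and SRSF6. SRSF5 (ENSG00000100650, chromosome 14 from 69726900 to 69772005, plus strand, GRCh38) stood at 211 CPM in K562 with DMSO and 377 CPM with periplocin, and at 248 and 371 CPM in THP-1. Both periplocin libraries thus lay above both DMSO libraries. The log2 fold change was 0.83 ± 0.03 (SE) in K562 and 0.58 ± 0.03 in THP-1. SRSF4 stood at 101 and 167 CPM in K562 and at 79.2 and 94.3 CPM in THP-1, a log2 fold change of 0.72 ± 0.05 and 0.25 ± 0.05. SRSF6 stood at 205 and 266 CPM in K562 and at 232 and 248 CPM in THP-1. Its change in THP-1 was the smallest of the SR genes that passed, at 0.09 ± 0.03. Within the pair SRSF4 and SRSF6, SRSF4 took 33.0% of the counts in K562 with DMSO and 38.5% with periplocin, and 25.4% and 27.6% in THP-1, so its share was higher with periplocin in both lines. SRSF11, a less typical member that binds U2AF, was at 304 and 399 CPM in K562 and at 219 and 253 CPM in THP-1.

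SRSF2, SRSF3 and SRSF7 moved in opposite directions in the lines. SRSF2, or SC35, binds exonic enhancers and is a recurrent site of mutation in myeloid neoplasms. SRSF2 (ENSG00000161547, chromosome 17 from 76734115 to 76737374, minus strand) stood at 241 CPM in K562 with DMSO and 313 CPM with periplocin, but at 375 and 218 CPM in THP-1. In the DMSO libraries THP-1 held the higher level, and with periplocin K562 did. The log2 fold change was 0.38 ± 0.03 in K562 and -0.78 ± 0.03 in THP-1, and the difference between the lines was -1.16 (95% counting interval -1.24 to -1.08). MFSD11, on the opposite strand, covers 36.7% of the exonic bases of SRSF2, and the library kit is not known to mark strand. MFSD11 itself had 360 to 564 counts, few beside the 3853 to 7767 counts of SRSF2.

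SRSF3 and SRSF7 are small SR proteins that also serve as adaptors for mRNA export and influence the choice of polyadenylation site. SRSF3 stood at 254 and 381 CPM in K562 and at 382 and 301 CPM in THP-1. SRSF7 (ENSG00000115875, chromosome 2 from 38743599 to 38751494, minus strand) stood at 103 and 183 CPM in K562 and at 124 and 92.5 CPM in THP-1. Here too the order of the lines was turned round: THP-1 was higher in DMSO and K562 in periplocin. SRSF3 changed by 0.59 ± 0.03 on the log2 scale in K562, so near the 1.5-fold limit that scaling without mitochondrially encoded genes took it below, and by -0.34 ± 0.03 in THP-1. SRSF7 changed by 0.84 ± 0.04 and -0.43 ± 0.05, a difference between lines of -1.26 (-1.39 to -1.14). The split between the pair moved little: SRSF3 held 71.2% and 67.5% of their joint counts in K562, and in THP-1 75.4% and 76.5%. SRSF7 had 6 NMD-annotated transcripts among 12, the most of the SR genes, and SRSF2 and SRSF3 had 2 each.

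SRSF1, the founding SR protein, which promotes inclusion of exons with purine-rich enhancers, rose in K562 and not in THP-1. SRSF1 stood at 306 and 443 CPM in K562 and at 460 and 459 CPM in THP-1 (DMSO, periplocin), a log2 fold change of 0.54 ± 0.03 in K562. The THP-1 libraries did not differ past counting error. An overlapping same-strand gene without a name of its own, ENSG00000266086, covers 56.6% of the exonic bases of SRSF1, with 471 and 1075 counts in K562 and 281 and 228 in THP-1. With its counts added the change of SRSF1 in K562 was 0.60 ± 0.03. SRSF10, which acts as a repressor when dephosphorylated, showed the same pattern, with 218 and 272 CPM in K562 and 242 CPM in both THP-1 libraries. SRSF9, the closest relative of SRSF1, was the only SR gene that was lower in K562, at 103 and 84.1 CPM, a log2 fold change of -0.29 ± 0.05. In THP-1 it stood at 73.2 and 68.5 CPM and did not pass. GATC, on the opposite strand, covers 46.2% of the exonic bases of SRSF9, and had 1438 and 1839 counts in K562, higher with periplocin where SRSF9 was lower. Of the counts of SRSF1 and SRSF9 together, SRSF1 held 74.8% and 84.1% in K562, and in THP-1 86.3% and 87.03%, so K562 with periplocin came close to the THP-1 ratio.

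SRSF8 and SRSF12 were the least expressed SR genes. SRSF8, a relative of SRSF2 that arose by retrotransposition, stood at 68.4 and 73.8 CPM in K562 and at 28.3 and 25.0 CPM in THP-1, with neither change past counting error; with DESeq2's size factors the K562 change passed. SRSF12, a relative of SRSF10, had 0 and 6 counts in K562 and 28 and 14 in THP-1. Neither pair of SRSF12 counts differed past counting error, with an edgeR adjusted p of 0.052 and 0.18, while the test of the difference between the lines passed (adjusted p = 0.0032).

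**Figure D3:**
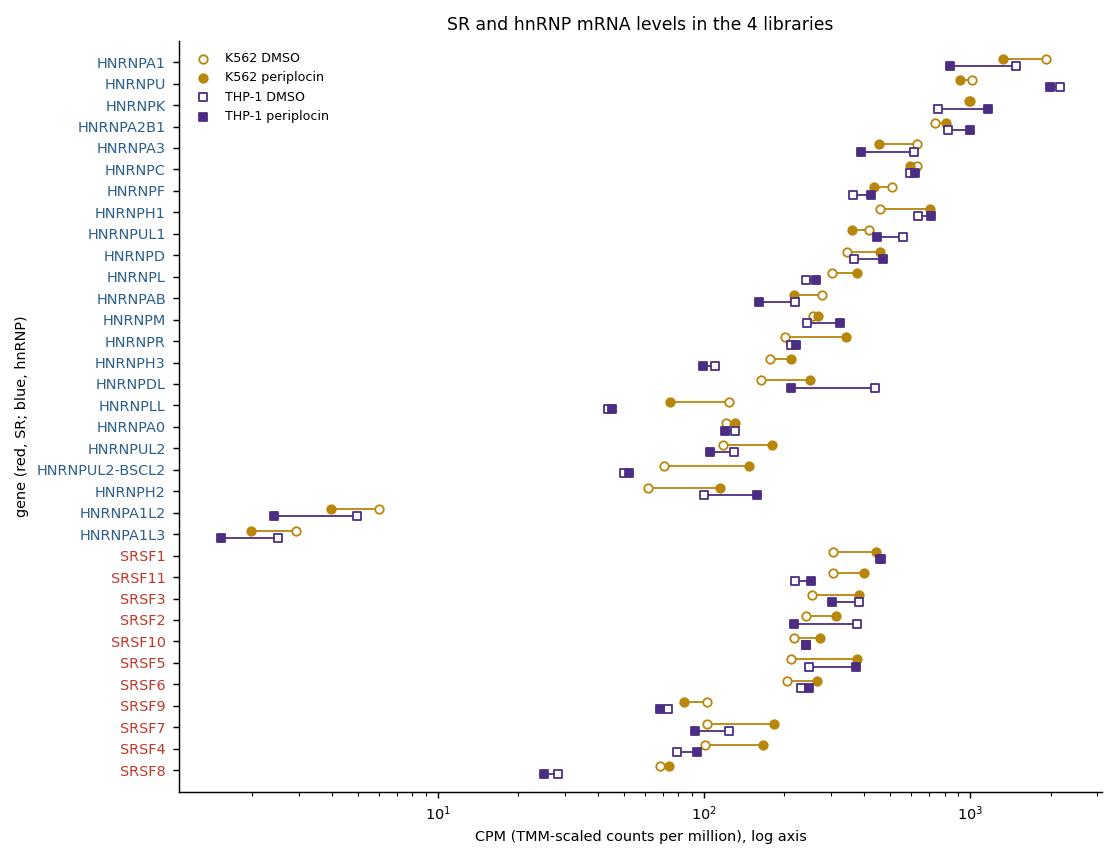
Level of each member of at least 1 CPM in both lines, in CPM on a log axis, in K562 (gold circles) and THP-1 (purple squares) with DMSO (open) and periplocin (filled), SR genes in red and hnRNP genes in blue type. The highest and the lowest levels are those of hnRNP genes, and the families overlap in between. Among the well expressed members the widest step within THP-1 is that of HNRNPDL, from 439 to 212 CPM.

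The hnRNP A and B proteins, repressors of splicing that bind UAG-type elements, were divided among themselves in both lines. HNRNPA1, the best studied splicing silencer, had the highest level per kilobase of its longest coding transcript in both DMSO libraries, 465 CPM per kb in K562 and 360 in THP-1. With periplocin it had 322 and 204 CPM per kb, below HNRNPK in both lines, which had 336 and 394. HNRNPA1 (ENSG00000135486, chromosome 12 from 54280193 to 54287088, plus strand) stood at 1917 and 1326 CPM in K562 and at 1482 and 839 CPM in THP-1. Both periplocin libraries lay below both DMSO libraries. The log2 fold change was -0.53 ± 0.01 in K562 and -0.82 ± 0.01 in THP-1, and it stayed at those values with the counts of HNRNPA1L2 and HNRNPA1L3 added. These are near copies of HNRNPA1, with 22.4% and 33.3% of their 100-base stretches also present in HNRNPA1, so how reads are divided among the 3 is uncertain. HNRNPA1L2 had 98 and 66 counts in K562 and 103 and 43 in THP-1, and HNRNPA1L3 had 48 and 33, and 52 and 27. The 2-fold call of HNRNPA1L2 in THP-1 (-1.03 ± 0.26) therefore rests on few counts.

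HNRNPA3 and HNRNPAB fell with HNRNPA1. HNRNPA3, which shuttles between nucleus and cytoplasm, stood at 629 and 452 CPM in K562 and at 612 and 389 CPM in THP-1, a log2 fold change of -0.48 ± 0.02 and -0.65 ± 0.02. HNRNPAB, the CArG-box binding factor, stood at 276 and 217 CPM in K562 and at 220 and 160 CPM in THP-1, changing by -0.35 ± 0.03 and -0.46 ± 0.04. In all 3 genes the THP-1 change was the larger. HNRNPA2B1, which shares many targets with HNRNPA1, moved the other way, at 733 and 808 CPM in K562 and 825 and 994 CPM in THP-1 (0.14 ± 0.02 and 0.27 ± 0.02). HNRNPA1 accordingly made up 72.3% of the counts of HNRNPA1 and HNRNPA2B1 in K562 with DMSO and 62.1% with periplocin, and 64.3% and 45.8% in THP-1, where HNRNPA2B1 came to hold the larger part. HNRNPA0, an intronless gene whose product binds AU-rich elements, moved little, at 121 and 130 CPM in K562 and 131 and 120 CPM in THP-1.

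Among members of at least 10 CPM, HNRNPDL showed the widest contrast between lines. It is a relative of HNRNPD (AUF1), and both bind AU-rich RNA. HNRNPDL (ENSG00000152795, chromosome 4 from 82422564 to 82430408, minus strand) stood at 163 CPM in K562 with DMSO and 250 CPM with periplocin, and at 439 and 212 CPM in THP-1. THP-1 with DMSO was high above the other 3 libraries, which lay between 163 and 250 CPM. The log2 fold change was 0.61 ± 0.04 in K562 and -1.05 ± 0.03 in THP-1, a difference of -1.67 (-1.75 to -1.58). HNRNPD stood at 343 and 459 CPM in K562 and at 365 and 471 CPM in THP-1, 0.42 ± 0.03 and 0.37 ± 0.02, nearly the same rise in both. The difference between lines for HNRNPD, -0.05 (-0.12 to 0.01), had an interval that included 0. HNRNPD held 67.7% and 64.7% of the counts of the pair in K562, and in THP-1 45.4% and 69.0%, so the ratio in THP-1 with periplocin was close to that in K562. HNRNPDL has 4 NMD-annotated transcripts among 10, and gene counts do not show which of its transcripts fell.

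By a test of the difference between lines, an edgeR likelihood ratio test at a dispersion of 0 on the line by treatment term, a difference of at least 1 on the log2 scale was called for 4 of 35 members, HNRNPDL, SRSF2, SRSF7 and SRSF12. All 4 had the lower log2 fold change in THP-1, beside 8% of 17197 genes, and 0 were called the other way, beside 9.04%. Among members of at least 10 CPM in both lines there were 3 called lower, HNRNPDL, SRSF2 and SRSF7, beside 7.14% of genes of that level, and 0 higher, beside 7.59%. The call of SRSF12 rests on 0 and 6 counts in K562, and its fitted difference depends on the prior count. HNRNPUL2-BSCL2, SRSF3 and HNRNPUL2 came next, at -0.99, -0.93 and -0.91.

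The F and H proteins, which bind runs of G and can act as enhancers or silencers, were mostly higher with periplocin. HNRNPH2, an X-linked gene, had the largest increase in K562 past counting error of a member other than the read-through gene. HNRNPH2 (ENSG00000126945, chromosome X from 101408295 to 101414133, plus strand) stood at 61.6 and 115 CPM in K562 and at 99.9 and 158 CPM in THP-1. In each line the periplocin library was the higher, with a log2 fold change of 0.90 ± 0.06 and 0.66 ± 0.04. A read-through of RPL36A into HNRNPH2 covers 16.3% of its exonic bases, and with its counts added the changes were 0.86 ± 0.05 and 0.58 ± 0.04. HNRNPH1 stood at 459 and 705 CPM in K562 and at 636 and 712 CPM in THP-1, a log2 fold change of 0.62 ± 0.02 and 0.16 ± 0.02. HNRNPF went opposite ways, at 510 and 433 CPM in K562 and 361 and 425 CPM in THP-1 (-0.24 ± 0.02 and 0.23 ± 0.02). HNRNPF held 89.2% and 79.0% of its joint counts with HNRNPH2 in K562, and in THP-1 78.3% and 72.8%, lower with periplocin in both lines. HNRNPH3 stood at 176 and 211 CPM in K562 and at 110 and 99.3 CPM in THP-1, changes of 0.26 ± 0.04 and -0.15 ± 0.05.

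HNRNPK, which binds C-rich RNA and DNA through KH domains, changed in THP-1 alone. It stood at 999 and 989 CPM in K562, which did not differ past counting error (-0.01 ± 0.02, and 0.01 with DESeq2's size factors), and at 756 and 1160 CPM in THP-1, 0.62 ± 0.01. The difference between lines was 0.63 (0.59 to 0.68). HNRNPL and HNRNPLL bind CA repeats, and HNRNPLL is known for excluding exons of CD45 in activated lymphocytes. HNRNPLL had the largest fall in K562, from 125 to 74.6 CPM (-0.74 ± 0.05), and stood at 43.75 and 45.3 CPM in THP-1. HNRNPL was at 301 and 375 CPM in K562 and at 241 and 264 CPM in THP-1, higher with periplocin in both. The HNRNPL share of the pair was 70.8% in K562 with DMSO and 83.4% with periplocin, and 84.6% and 85.3% in THP-1, again a shift in K562 towards the THP-1 ratio.

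**Figure D4:**
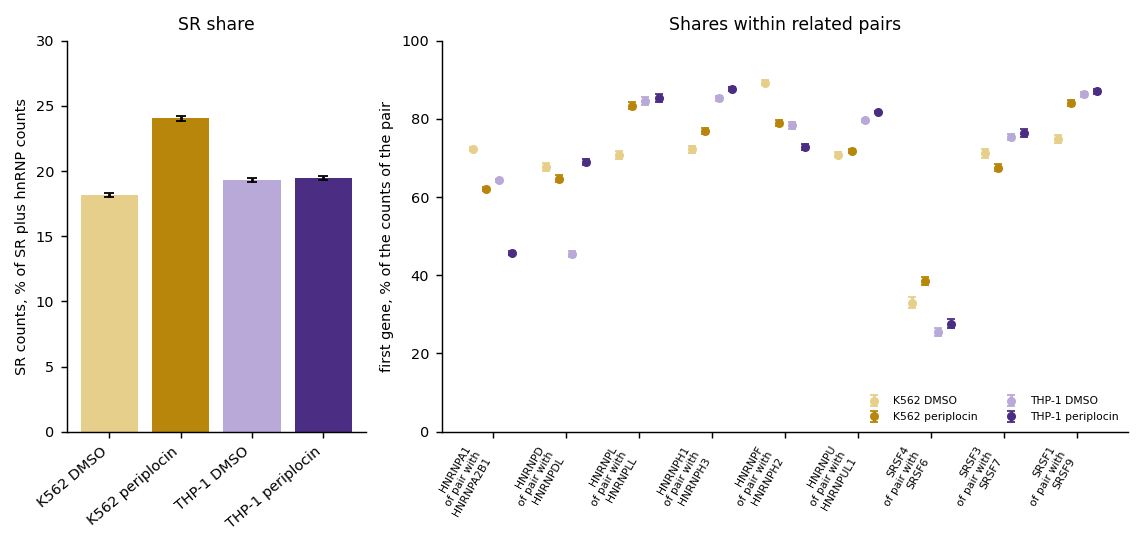
Left, SR counts as a percentage of SR plus hnRNP counts in each library. Right, counts of the first gene as a percentage of the counts of a related pair; bars show 95% Clopper-Pearson intervals, which cover counting error only. The SR share was 24.0% in K562 with periplocin and 18.2% to 19.5% in the other libraries, and the widest steps in the right panel are those of HNRNPD with HNRNPDL and of HNRNPA1 with HNRNPA2B1 in THP-1.

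The other hnRNP genes moved by less or in 1 line. HNRNPR, which binds RNA in nucleus and axon, rose in K562 from 201 to 340 CPM (0.75 ± 0.03) and stood at 212 and 221 CPM in THP-1, short of the test. HNRNPM, a regulator of exons in growth factor receptor genes, did the reverse, at 256 and 267 CPM in K562, short of the test except with other scalings, and at 244 and 325 CPM in THP-1 (0.41 ± 0.03). HNRNPC, which binds U tracts on nascent RNA, stood within 593 to 628 CPM in all 4 libraries, with changes of -0.08 ± 0.02 and 0.06 ± 0.02. HNRNPU, the scaffold attachment factor, stood at 1012 and 910.5 CPM in K562 and at 2178 and 1994 CPM in THP-1. The lines differed in its level more than the treatments did, with a log2 fold change of -0.15 ± 0.02 and -0.13 ± 0.01. COX20, on the opposite strand, covers 15.6% of its exonic bases and had 971 to 1250 counts. HNRNPUL1 fell slightly in both lines, from 416 to 358 CPM and from 557 to 445 CPM.

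HNRNPUL2 and the read-through gene HNRNPUL2-BSCL2 were higher in K562 only. HNRNPUL2 stood at 118 and 181 CPM in K562 and at 129 and 105 CPM in THP-1, a log2 fold change of 0.62 ± 0.04 and -0.29 ± 0.04. HNRNPUL2-BSCL2, which joins HNRNPUL2 to the next gene and whose only annotated transcript is an NMD target, stood at 71.0 and 147 CPM in K562 (1.05 ± 0.05) and at 50.03 and 52.2 CPM in THP-1. The pair shares 44.2% of the exonic bases of HNRNPUL2, so the division of reads between them is uncertain. Of the exonic bases of HNRNPUL2-BSCL2, 59.8% lie in HNRNPUL2 and 40.2% in BSCL2. Other genes hold 97.5% of its 100-base stretches, so this row had almost no sequence of its own. Summed, they changed by 0.80 ± 0.03 in K562 and -0.18 ± 0.04 in THP-1. BSCL2 itself had 248 and 240 counts in K562 and 100 and 76 in THP-1.

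All 4 libraries were also fitted together by edgeR's quasi-likelihood test with line and treatment as terms, a fit whose error is how far the lines differ in response. No gene passed among 13584 (0%), members included. At an unadjusted p under 0.05 there were 2 members, SRSF5 and HNRNPH2, beside 11.3% of all genes. Their unadjusted p was 0.038 and 0.025, with an edgeR adjusted p of 0.41 and 0.39. DESeq2 passed 123 of 11253 genes and 0 of 33 members for which it gave an adjusted p. Before adjustment it had 3 of the 39 members under 0.05, beside 1180 of the 20348 genes, with genes without a count included in both.

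The wider splicing machinery was described by 8 gene lists. Their counts of calls at 2-fold stand beside 8.18% of all genes called higher and 10.1% lower in K562, and 8.28% and 9.76% in THP-1, and no list was tested against the rest of the genes. Of the 18 calls of list genes named here, 7 passed with an assumed dispersion of 0.04, CELF2, CLK4, PRPF4B, SF3A1, SNRNP70 and PRMT6 in K562 and PRMT6 in THP-1, and 0 passed with 0.16. SR-related splicing factors are proteins with arginine and serine repeats outside the SRSF series. Their median log2 fold change was 0.44 in K562 and -0.08 in THP-1. Higher in value were 17 of 20 in K562, beside 5835 of 11863 genes of at least 1 CPM. In THP-1 they were 8 of 20, beside 5989 of 12341. In K562, 3 of 20 were called higher at 2-fold and 0 lower: LUC7L3, a U1-associated protein, at 308 and 685 CPM, BCLAF1 at 138 and 301 CPM, and SCAF4, which guards against early polyadenylation, at 116 and 246 CPM. In THP-1, 0 of 20 were called in either direction at 2-fold. Among SR protein kinases and import factors, 2 of 15 were called higher in K562: CLK4 (29.2 and 78.1 CPM) and PRPF4B (199 and 469 CPM). In THP-1, 2 of 15 were called lower, both below a mean of 1 CPM.

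The core spliceosome lists differed in K562. Of 22 genes of the U1 and U2 snRNPs and U2AF, 6 were called higher and 4 lower at 1.5-fold in K562, beside 15.4% and 17.4% of all genes. At 2-fold 4 were called higher there, beside 8.18%, and 0 lower: SF3A1 (93.1 and 239 CPM), SNRNP70 of U1 (206 and 523 CPM), SF3B2 (220 and 465 CPM) and SF3B1 (313 and 637 CPM). The list's median was 0.14 there and -0.08 in THP-1, where 1 of 22 was called, SNRPA of U1, lower at 96.3 and 46.5 CPM. Of 22 U4/U6.U5 tri-snRNP genes, the helicase gene DDX23 was called higher in K562 (113 and 245 CPM), with a median of 0.36 in K562 and -0.21 in THP-1. Of the 8 Sm protein genes, the 7 of at least 1 CPM in K562 had a median of -0.15, with 1 higher and 6 lower in value. In THP-1 the median of the 8 was -0.29, with 4 higher and 4 lower, and SNRPF was called lower (26.3 and 12.5 CPM). The 15 NMD factors had medians of 0.30 and 0.27, and 0 were called at 2-fold in either line.

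Arginine methyltransferases, which modify the glycine and arginine rich domains of hnRNPs, had medians below 0 in both lines. The median of the 10 genes was -0.29 in K562 and -0.77 in THP-1. Lower in value were 8 of 10 in K562, beside 6028 of 11863 genes of at least 1 CPM. In THP-1 they were 9 of 10, beside 6352 of 12341. Called lower at 2-fold were 1 of 10 in K562, PRMT6, beside 10.1% of all genes, and 4 of 10 in THP-1, beside 9.76%. PRMT6 stood at 48.2 and 17.6 CPM in K562 and 43.0 and 17.8 CPM in THP-1. PRMT1, the main enzyme for asymmetric dimethylation, stood at 84.3 and 62.7 CPM in K562 and 95.4 and 44.5 CPM in THP-1. PRMT7 (37.3 and 17.6 CPM) and PRMT3 (22.1 and 10.99 CPM) were the others called in THP-1. Among 31 hnRNP and related proteins with other symbols, CELF2 was called lower in K562, from 196 to 43.1 CPM, and stood at 321 and 395 CPM in THP-1. In THP-1, 1 of that list was called higher, below a mean of 1 CPM, and the list's medians were 0.15 and -0.00.

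**Figure D5:**
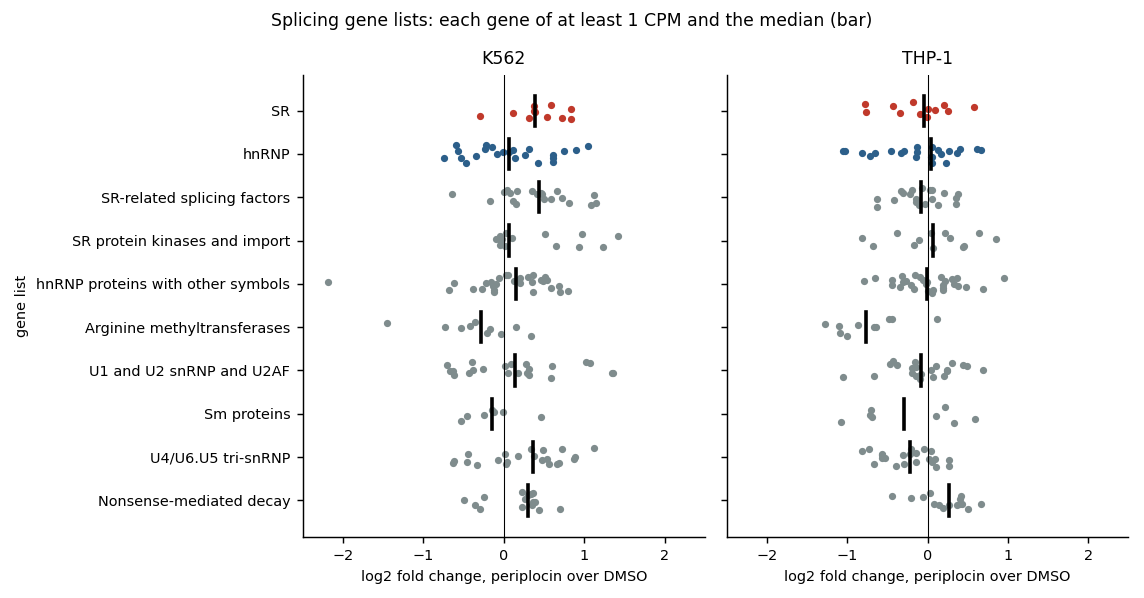
Log2 fold change, periplocin over DMSO, of every gene of at least 1 CPM in each gene list (points) with the list's median (bar), in K562 (left) and THP-1 (right). In K562 the medians of the SR genes (0.39), the SR-related factors (0.44) and the tri-snRNP (0.36) lie to the right of 0, and in THP-1 the arginine methyltransferases have the lowest median (-0.77).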

How the data were processed

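Poly-A RNA of 4 libraries was sequenced, and the authors deposited 1 table of expected counts per gene, neither normalized nor pooled. The submitters' processing notes name HISAT2, StringTie 1.3.1 and hg38, and the program that made the counts is not given in the sources used here. Reads that fit several genes may have been divided by that program, and 87.4% to 88.3% of values per library were whole numbers. The labels name an Illumina instrument and the methods a T7 one. Counts were rounded. Of 20348 identifiers, 20118 were found in GENCODE release 29 (GRCh38), and 20334 had a symbol.

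TMM factors for each line's libraries came from edgeR 4.0.16 (R 4.3.3), whose exact binomial test (dispersion 0) was run on genes counted at least 1 time in that line. Fold changes used a prior count of 0.125. Adjustment was by the Benjamini-Hochberg method over all genes tested. The 4 libraries were fitted with line and treatment as terms (genes with at least 10 counts in 2 libraries, 1 residual degree of freedom, biological coefficient of variation 0.317), with DESeq2 1.42.0 as an alternative. On counts simulated with counting error only, 200 well counted genes were changed 4-fold. All 200 were recovered in K562 (15499 genes, 0 other calls) and in THP-1 (15692 genes, 2 other calls). The simulated counts held no spread between cultures and no smaller changes. The recovery therefore checks the code and not the calls made here.

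Depth was 16381172 to 20622719 counts per library, so that counting error was small for members of at least 10 CPM. Every member was named by rule, and from each gene list the genes called at 2-fold, at most 5 of at least 1 CPM. The members, lists and tests were chosen with earlier results of these data known. Genes with at least 10% of exonic bases overlapping a member were checked in GENCODE, and shared 100-base stretches were counted. Figures used Python 3.11.15, pandas 2.3.3 and matplotlib 3.10.9, with scipy 1.17.1 for intervals. Alternatives were other scalings, dispersions, expression limits and prior count, a share per kilobase and without the top members, and, chosen after seeing the data, a dispersion of 0.01, a share without the top members of K562, sums over genes that share reads, and lists without read-through and near-copy genes.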

Additional observations from a re-analysis of the deposited data

Results flagged for a closer look

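In 3 members with more than 3 counts in every library the response to periplocin differed between the lines by at least 1 on the log2 scale, by edgeR's likelihood ratio test of the line by treatment term at a dispersion of 0, and went in opposite directions. HNRNPDL differed by -1.67 (THP-1 minus K562), SRSF7 by -1.26 and SRSF2 by -1.16. All 3 were higher with periplocin in K562 and lower in THP-1, in 1 library of each kind. With an assumed dispersion of 0.01 all 3 differences passed, and with 0.04 none of the 3 did. SRSF12 passed the same test with 0 and 6 counts in K562 and 28 and 14 in THP-1, and is left aside because a library at 0 leaves its fold change undefined.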

How the results depend on the processing

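The directions of the SR and hnRNP medians and the SR share in K562 kept their sign under every alternative run. With an assumed dispersion of 0.04 or 0.16, the members called at 2-fold were 0 in K562 and 0 in THP-1, in place of 1 and 2, and those called at 1.5-fold were 0 and 0, in place of 12 and 7; with 0.01 the K562 count was 11. Testing only genes of at least 10 CPM left 1 member called in THP-1. Without read-through and near-copy genes, 0 were called in K562 and 1 in THP-1. The SR share rose by 5.44 points in K562 without SRSF1 and HNRNPU, which had the most counts over the 4 libraries, and by 4.67 without SRSF1 and HNRNPA1, which had the most in K562. Its THP-1 shift was -0.148 and -0.959 points then, and -0.54 points per kilobase. Signs turned for HNRNPK in K562 (0.0116 with DESeq2's size factors), SRSF1 in THP-1 (0.0076 likewise) and SRSF10 in THP-1 (-0.0095 with total counts), all near 0. Of the 70 within-line values of members, dispersions of 0.01 and 0.04 took 35 and 56 out of the test. The 14 values unchanged at 0.04 were those that had not passed at a dispersion of 0, so none passed at 0.04. HNRNPM in K562 came to pass with DESeq2's size factors (edgeR adjusted p = 0.00719) and total counts (0.0284). SRSF8 in K562 did so with DESeq2's size factors (0.0416). Replicates could not be paired, since each line and treatment had 1 library and the labels give no replicate numbers. No library was left out, since each condition had only 1. The fit over 4 libraries, with line as a term, compares the treatments within lines. Depth limits the members with few counts, HNRNPA1L2, HNRNPA1L3 and SRSF12.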
